A study of Drosophila melanogaster with 3 samples.

Results

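The 10 genes described here encode factors that hold back or accompany RNA polymerase II early in transcription. They are the NELF subunit genes Nelf-A, NELF-B, Nelf-E and TH1, the DSIF subunit genes Spt5 and spt4, the histone chaperone gene Spt6, and the Paf1 complex genes Rtf1, atms and hyx, out of 13945 annotated protein-coding genes. They were chosen by name, as members of these complexes, but with earlier results of these data known. The samples were 3 biological replicates of whole Drosophila melanogaster embryos, aged 0 to 24 h and of both sexes, from a transgenic line that stably expresses lilli with GFP at its C terminus (lilli-eGFP). All 3 replicates belong to this 1 group and carry the same fusion protein, whose promoter the labels do not name, and the antibody was against GFP. Chromatin immunoprecipitation with sequencing (ChIP-seq) was used, in which the DNA that comes down with a protein is read and peaks of reads mark where the protein, or something that holds it, sat on the chromosome.

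Shortly after RNA polymerase II starts on many fly genes, it pauses a short way into the gene. NELF and DSIF bind the paused polymerase and keep it there. The kinase P-TEFb releases the pause by phosphorylating both factors and the polymerase, whereupon NELF leaves and DSIF travels on, joined by Spt6 and the Paf1 complex. Lilli (lilliputian) is the fly AF4/FMR2 family member and the scaffold of the super elongation complex, which carries P-TEFb. The peak lists were read at the genes that encode other factors of the same step. No expression values of these genes were used.

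The files held 5 lists of peaks on the dm6 assembly. These were 30000 ranked peaks for each replicate, 30000 for the replicates pooled, and 6970 optimal peaks, which were tested to be exactly the 6970 strongest pooled peaks. Each peak has a signal, the authors' own value, which ranks peaks within a list (rank 1 is the strongest) and cannot be compared between lists. The lists hold no read counts, so the depth behind each rank is unknown, and no library without the fusion protein was analysed here. A promoter peak is one whose summit lay within 500 bp of any annotated transcription start site (TSS) of the gene. Signal that open promoters give to any such experiment was not separated from binding of lilli. With 1 group there is no comparison of conditions and no p-value. The members' counts and ranks are set beside those of all protein-coding genes as a description.

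Of the 10 genes, 9 carried an optimal promoter peak, namely all except TH1, while 31.3% of all protein-coding genes did. By complex these were 3 of 4 NELF genes, both DSIF genes, Spt6, and all 3 Paf1 complex genes. A promoter peak of any rank in the pooled list was present at the same 9 genes and at 55.0% of all protein-coding genes. When the strongest 6970 peaks of each replicate were taken alone, 8, 10 and 10 members had one at a promoter in replicates 1, 2 and 3 (9.33 ± 1.15, SD, n = 3), where the shares over all protein-coding genes were 30.5%, 31.7% and 30.1%. In all 3 replicates together it was 8 members, against 24.6% of protein-coding genes, and the missing genes were Spt5 and TH1.

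The strongest peak of the set lay at Nelf-E and the weakest optimal one at Spt5. Among the 9 genes the median optimal rank was 2255, while the median over the 4371 protein-coding genes with an optimal promoter peak was 2651. Within that ordered list of 4371 genes, Nelf-E stood at place 661, Nelf-A at 975, hyx at 1706, Spt6 at 1765, spt4 at 1947, Rtf1 at 1979, NELF-B at 2089, atms at 3177 and Spt5 at 4223. Ranks from the single replicates separate some neighbours in this order and not others. The ranges over the replicates did not overlap between Nelf-E and Nelf-A, between Nelf-A and hyx, or between NELF-B and atms. Each of the other neighbours overlapped with the next, from hyx through Spt6, spt4 and Rtf1 to NELF-B and from atms to Spt5. The difference within each of these neighbouring pairs is thus not larger than the spread between replicates. Some genes further apart did not overlap. Spt6 (1880 to 2054) and hyx (1657 to 2325) both ranked ahead of NELF-B (2628 to 3072). Spt6 also ranked ahead of Rtf1 (2120 to 3380).

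**Figure D1:**
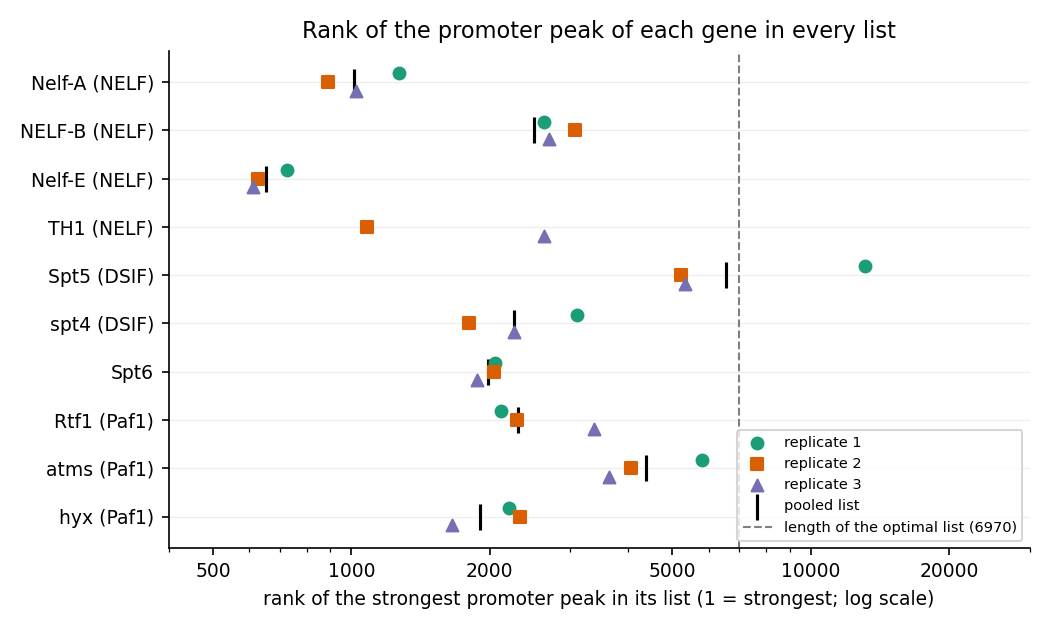
Rank of the strongest promoter peak of each gene (x axis, log scale, rank 1 is the strongest) in replicates 1 to 3 (coloured symbols) and in the pooled list (black bar), with the length of the optimal list as a dashed line. Nelf-E and Nelf-A sit furthest left in every list that holds them, TH1 has symbols for replicates 2 and 3 only, and Spt5 in replicate 1 lies beyond the dashed line at 13113.

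Of the NELF genes, Nelf-E encodes the subunit with an RNA recognition motif, which contacts the nascent transcript. It lies on 3L from 8599442 to 8600879 on the minus strand. Its promoter peak ranked 725, 626 and 611 in replicates 1, 2 and 3 and 653 in the pooled list, with a pooled signal of 590. All 3 replicates placed it within the first 725 peaks. Nelf-A, which encodes a subunit that touches the polymerase itself, lies on 3R from 21223704 to 21229512 on the plus strand. Its peak ranked 1268, 891 and 1026 in replicates 1, 2 and 3 and 1013 when pooled (signal 455). NELF-B, which encodes the subunit that holds Nelf-E in the complex, lies on X from 7725996 to 7728361 on the minus strand and had a pair of optimal promoter peaks. The stronger ranked 2628, 3072 and 2689 in replicates 1, 2 and 3 and 2494 when pooled (signal 258). The weaker, with a summit 336 bp upstream, ranked 3859, 8194 and 2787 and 3605 when pooled (signal 197). The replicates were close to each other for the first of these peaks and spread for the second, which in replicate 2 fell outside the strongest 6970.

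The NELF promoters are shown as 101 bases centred on the summit. Whether sequence goes with rank was not tested. Each reads 5′ to 3′ along its own gene, with capitals marking the 8 letters TATCGATA, the DNA replication-related element (DRE), which is bound by the factor Dref at many fly housekeeping promoters. The bases are from the RefSeq copy of the dm6 assembly.
Nelf-A, chr3R:21223572-21223672, plus strand: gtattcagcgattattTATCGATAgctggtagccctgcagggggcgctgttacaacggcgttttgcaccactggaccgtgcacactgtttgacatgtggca
NELF-B, chrX:7728353-7728453, minus strand: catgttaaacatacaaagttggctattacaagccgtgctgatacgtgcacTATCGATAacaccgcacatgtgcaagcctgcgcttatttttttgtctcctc
Nelf-E, chr3L:8600926-8601026, minus strand: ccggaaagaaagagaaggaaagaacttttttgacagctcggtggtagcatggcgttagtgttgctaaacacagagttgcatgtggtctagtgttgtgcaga
TH1, chrX:16391448-16391548, minus strand, centred on the summit of replicate 2: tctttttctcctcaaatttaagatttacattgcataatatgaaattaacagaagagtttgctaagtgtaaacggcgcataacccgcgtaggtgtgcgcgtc

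The NELF-B element began on the summit base itself, and that of Nelf-A had its middle 30.5 bp upstream of the summit. The Nelf-A element began at -116 bp from the Nelf-A start (negative is upstream). A neighbour read the opposite way, CG3337, starts 120 bp from Nelf-A, so the element lay close to that start too. The Nelf-E and TH1 windows held no TATCGATA. GC content in the central 51 bases was 62.7% at Nelf-A, 49.0% at NELF-B, 45.1% at Nelf-E and 33.3% at TH1, and the median over all 3865 optimal promoter peaks was 37.3%.

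TH1 encodes the remaining NELF subunit, known as NELF-D in other animals, and lies on X from 16388820 to 16391438 on the minus strand. Its promoter peak ranked 1080 in replicate 2 and 2633 in replicate 3, which is inside the strongest 6970 of both. In replicate 1 none of the 30000 peaks had a summit within 500 bp of the TH1 start, and the nearest was 5.14 kb away. The pooled list held none either, and its nearest summit was 5.09 kb away. The summits of replicates 2 and 3 lay 17 bp apart, 60 and 43 bp upstream of the start. Every one of the 371 overlapping 31-base words within 200 bp of the replicate 2 summit was unique in the genome (100%). Of 5248 strong summits that replicates 2 and 3 shared within 100 bp, 40 had no pooled peak within 500 bp, and 19 of these had none in replicate 1 as well. Among protein-coding genes, 4280 had a promoter peak among the strongest of at least 2 replicates, and 59 of them (1.38%) had no pooled promoter peak, TH1 included. TH1 thus had a strong promoter peak in 2 of 3 replicates and none in the lists made from all 3, and the reason was not tested.

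DSIF is a pair of proteins, the large Spt5 and the small Spt4, which clamp the polymerase on its DNA and RNA. Of their genes, spt4 had the stronger peak in every list. The spt4 gene (2R, 12633589 to 12634172, plus strand) is 584 bp long and had a peak ranked 3108, 1802 and 2259 in replicates 1, 2 and 3 and 2255 when pooled (signal 277). The replicate summits of spt4 lay up to 97 bp apart, the widest spread of position among the members, and all were upstream of its start. Spt5 (2R, 19437483 to 19441898, plus strand) ranked 13113, 5209 and 5324 in replicates 1, 2 and 3 and 6546 when pooled (signal 118, where the weakest optimal peak had 112). Replicates 2 and 3 placed the Spt5 peak inside the strongest 6970 and replicate 1 did not, so without replicate 2 or replicate 3 Spt5 drops out and the count of members with an optimal promoter peak is 8. Its highest replicate rank was 2.52 times its lowest, and 11.7% of the 4299 optimal promoter genes with a peak in every replicate spread as far or farther. The median of that spread was 1.42-fold over the 9 members and 1.63-fold over the 4299 genes. A much stronger peak lay 304 bp past the end of Spt5, with a rank of 684 when pooled and 587, 807 and 746 in replicates 1, 2 and 3. That summit was 140 bp upstream of RpL11, a ribosomal protein gene on the same strand, and counts for RpL11 and not for Spt5.

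Spt6, a chaperone that rebuilds nucleosomes behind the polymerase, is encoded on X from 6267797 to 6274984 on the plus strand. Its peak ranked 2054, 2050 and 1880 in replicates 1, 2 and 3 and 1982 when pooled (signal 303). Among the members with a peak in every replicate its ranks varied least, by 1.09-fold, and its summits stayed within 13 bp of each other.

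In the Paf1 complex, which travels with the elongating polymerase and supports histone H2B ubiquitination, all 3 members had an optimal promoter peak, and they differed in which of their annotated starts carried it. Rtf1 (2R, 22375090 to 22378484, plus strand) encodes the subunit that in yeast promotes that ubiquitination. Its peak ranked 2120, 2299 and 3380 in replicates 1, 2 and 3 and 2312 when pooled (signal 273). Its summits lay 22, 8 and 31 bp upstream of the start, nearest to a start of all members.

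The atms gene (3R, 4750035 to 4777490, plus strand) encodes the Paf1 subunit itself and has 2 annotated starts that lie 25.6 kb apart. The peak was at the second, with a summit 101 bp upstream of it and inside an intron of the long transcript. It ranked 5812, 4055 and 3646 in replicates 1, 2 and 3 and 4388 when pooled (signal 168). The first start had no promoter peak in any of the 5 lists. Within the 27456 bp of the gene a further 6 pooled peaks lay away from promoters, all in introns and all ranked from 11618 to 29020, below the optimal set.

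The hyx gene (3R, 9038760 to 9042349, plus strand) encodes the fly Cdc73 (parafibromin), a subunit of the complex that also takes part in Wingless signalling. It has 2 annotated starts that lie 1006 bp apart, and each had an optimal promoter peak within 500 bp. The second of these peaks lay nearer to the start of a neighbour, neur, than to the second hyx start. The first peak ranked 2208, 2325 and 1657 in replicates 1, 2 and 3 and 1907 when pooled (signal 311). Its summit was 116 bp downstream of the first start, in the 5' UTR, at 110, 117 and 128 bp in the replicates. This was the only strongest promoter summit of a member that lay downstream of a start. The second peak had its summit 167 bp upstream of the second start (signal 163), and ranked 5723, 4156 and 8762 in replicates 1, 2 and 3 and 4556 when pooled. It was the weaker of the pair in every list, and in replicate 3 it fell outside the strongest 6970. The first summit is shown with the E-box CAGCTG in capitals, which began 30 bp downstream of the summit.
hyx, chr3R:9038826-9038926, plus strand: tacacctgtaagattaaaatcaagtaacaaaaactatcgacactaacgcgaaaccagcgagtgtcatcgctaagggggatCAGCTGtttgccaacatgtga

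**Figure D2:**
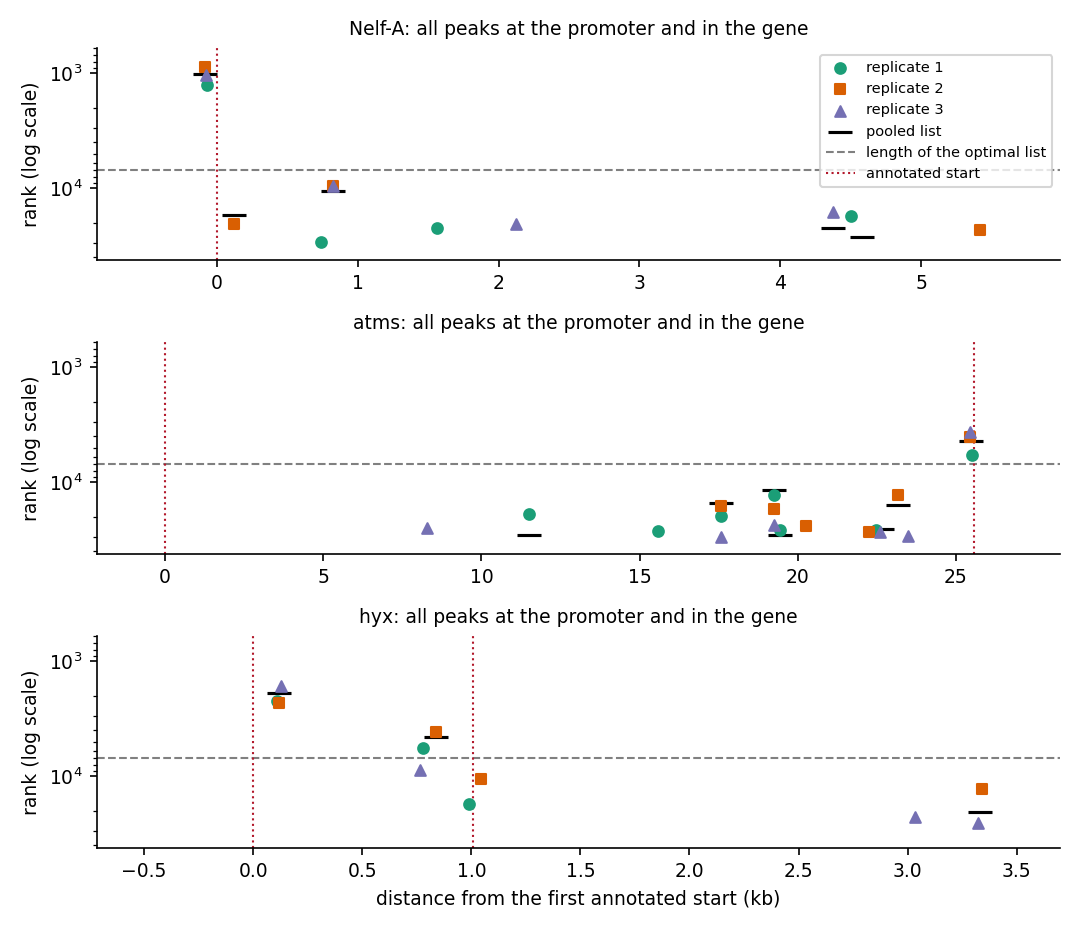
Rank of every peak at the promoters and inside Nelf-A, atms and hyx (y axis, log scale with strong peaks at the top) against distance from the first annotated start in kb, for the replicates (coloured symbols) and the pooled list (black bars). Peaks above the dashed line, which marks the length of the optimal list, stand only near starts (dotted lines). These are the single start of Nelf-A, the second of atms and both of hyx. Those near the second hyx start lie nearer to the start of neur, which is not drawn.

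Inside the genes and away from promoters no member had an optimal peak, where 9.81% of protein-coding genes had one. In the whole pooled list 3 members and 28.5% of protein-coding genes had such peaks, the members being Nelf-A with 3, atms with 6 and hyx with 1. The strongest of these 10 lay in an intron of Nelf-A, 827 bp downstream of the start, and ranked 10640 when pooled. Replicates 2 and 3 both placed it at 824 bp, with ranks of 9513 and 9589. The nearest peak of replicate 1 was at 741 bp with a rank of 29215. The members had a median gene length of 3493 bp (from 584 bp for spt4 to 27456 bp for atms), against a median of 3113 bp over all protein-coding genes with an optimal promoter peak.

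Most summits sat a short way upstream of the start, and many sat between a pair of genes that are read in opposite directions. Of the 9 strongest optimal summits, 8 were upstream of the nearest start and all 9 were within 200 bp of it, where 84.8% and 71.9% of the 4371 protein-coding genes were. The median was 82 bp upstream, against 109 bp over those genes. In replicates 1, 2 and 3 the members' median distance was -68, -93 and -81.5 bp (negative is upstream). These medians were over 9, 10 and 10 members, since TH1 had a peak only in replicates 2 and 3. For 7 of the 9 genes the same summit also lay within 500 bp of a start of another gene, against 59.5% of all protein-coding genes with an optimal promoter peak. In each of the 7 cases the other gene was read the opposite way. Such a peak cannot be assigned to either gene.

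The summit of Nelf-E was 97 bp upstream of its own start and 30 bp upstream of RpL14, which encodes a protein of the large ribosomal subunit and starts 127 bp away. The gene of a small nucleolar RNA starts 497 bp from that summit. It was the RpL14 start that lay nearer in every replicate, at 15, 23 and 37 bp in replicates 1, 2 and 3. Nelf-A starts 120 bp from CG3337, and its summit was 82 bp upstream of Nelf-A and 38 bp upstream of CG3337. Spt5 starts 224 bp from Fak, the focal adhesion kinase gene, and its summit was 153 bp upstream of Spt5 and 71 bp upstream of Fak. At Nelf-A and Spt5 too the neighbour's start was nearer in all 3 replicates. The strongest and the weakest peaks of the 9 were thus both nearer to another gene's start than to that of the member.

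At the other 4 of these 7 genes the summit was nearer to the member in every replicate. Rtf1 lies 124 bp from the start of a noncoding RNA, lncRNA:CR44759, whose start was 93 bp from the summit. Spt6 shares its peak with schlank, which encodes ceramide synthase, with a summit 376 bp upstream of schlank. The atms summit was 451 bp upstream of CG44088. The stronger NELF-B summit was 352 bp upstream of CG12155, while the weaker NELF-B summit was 58 bp upstream of CG12155 and so lay nearer to it. The second hyx peak was 128 bp upstream of neur, which encodes an E3 ubiquitin ligase of the Notch pathway and is read the opposite way. That summit lay nearer to neur than to the second hyx start, which was 167 bp away. The TH1 peak of replicate 2 was 200 bp upstream of mei-41, the fly ATR kinase gene. Only spt4 and the first hyx start had a strongest summit with no other start within 500 bp, the nearest being 840 bp away (CG33792) at spt4 and 595 bp away (neur) at hyx.

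**Figure D3:**
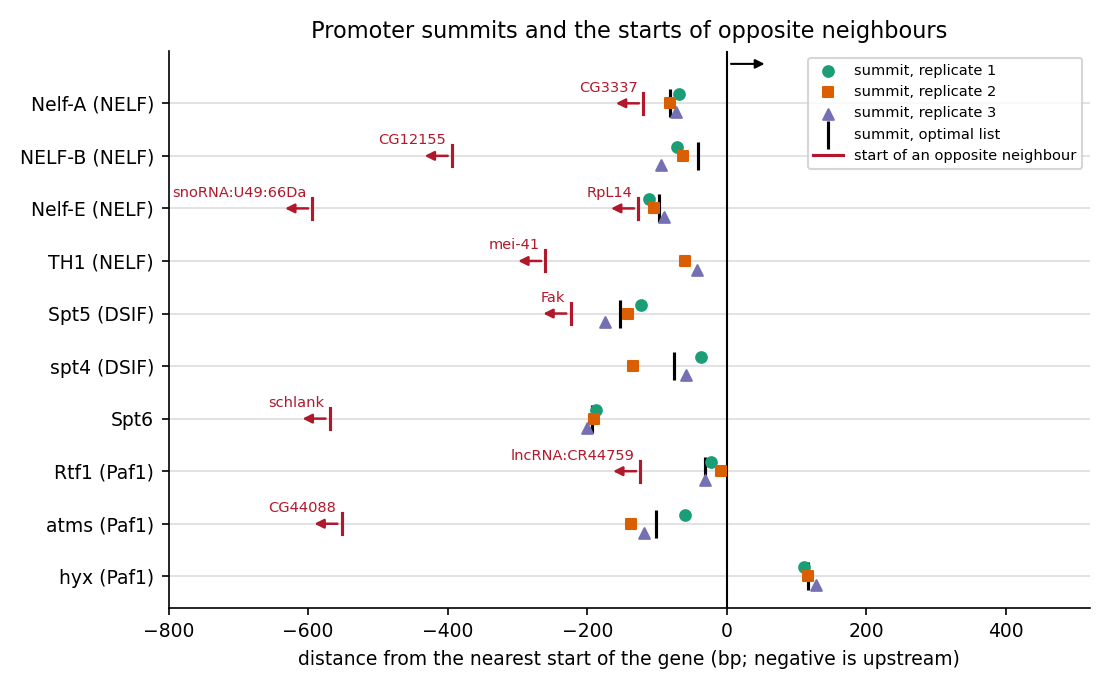
Position of the strongest promoter summit of each gene relative to its nearest start (x axis, bp, negative is upstream) in the optimal list (black bar) and in replicates 1 to 3 (coloured symbols), with the starts of genes on the opposite strand within 500 bp of the summit as red arrows. All summits except those of hyx lie left of the start at 0, and those of Nelf-A, Nelf-E and Spt5 lie closer to the red start than to their own.

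Short sequence words that are known from fly promoters were read within 100 bp of the 9 strongest optimal summits, on either strand. TATCGATA was found at Nelf-A, NELF-B and Rtf1, that is at 3 of 9, against 9.44% of the 3865 optimal promoter peaks and 8.49% of protein-coding genes within 100 bp of a start. All 3 matches also lay within 50 bp of the summit, where 5.05% of optimal promoter peaks had one, and at Rtf1 the middle of the match was 6.5 bp from the summit. The E-box CAGCTG was found at Rtf1 and hyx (2 of 9, against 12.5% of optimal promoter peaks and 17.4% of genes). The 8 letters GGTCACAC, the core of the Ohler 1 motif that M1BP binds, were found at Spt5 (1 of 9, against 5.43% and 7.56%), 91.5 bp from the summit. TATAAA was found at Spt5 as well (1 of 9, against 32.5% and 34.1%). Both of these counts are 0 without replicate 2 or replicate 3, when the Spt5 peak drops out. All matches of both words at Spt5 were on the opposite strand, on which Fak is read. GAGAG, a word of the GAGA factor, was found at none of the 9, against 20.3% and 28.7%. A match is a description of the letters and does not show that a factor binds there, and with 9 windows none of these shares was tested.

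Other genes of transcription elongation were compared from a list of 20 names, of which 19 matched an annotated gene. Of these 19, 11 had an optimal promoter peak, where 31.3% of all protein-coding genes did. A peak among the strongest of replicates 1, 2 and 3 was present at 11, 13 and 13, against 30.5%, 31.7% and 30.1% of protein-coding genes. In the pooled list 17 had a promoter peak of any rank, against 55.0%. The median optimal rank was 1250, which leaves out the 8 genes without an optimal peak. The rest of the Paf1 complex was among the 11 genes with one. Ctr9, its largest subunit, ranked 1036 when pooled and 1214, 1223 and 898 in replicates 1, 2 and 3, above the ranges of all 3 Paf1 members described here. Atu, the fly Leo1, ranked 3668 when pooled and 4690, 3980 and 2952 in the replicates. With them, 5 of 5 genes of the Paf1 complex carried an optimal promoter peak, against 31.3% of all protein-coding genes. P-TEFb itself, which releases NELF, had none at its genes: CycT ranked 7186 and Cdk9 18985 when pooled, and CycT was among the strongest 6970 in replicate 2 (rank 5513). The other genes without an optimal peak were Ssrp, TfIIS, Su(Tpl), Eaf, Set1 and Bre1. Of these, Eaf ranked 7018 when pooled, just past the 6970 of the optimal list. TfIIS (rank 6283) and Eaf (6307) were among the strongest 6970 in replicate 2, and Su(Tpl) (4962) and Ssrp (6862) in replicate 3. Set1 had no promoter peak in any of the 5 lists.

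**Figure D4:**
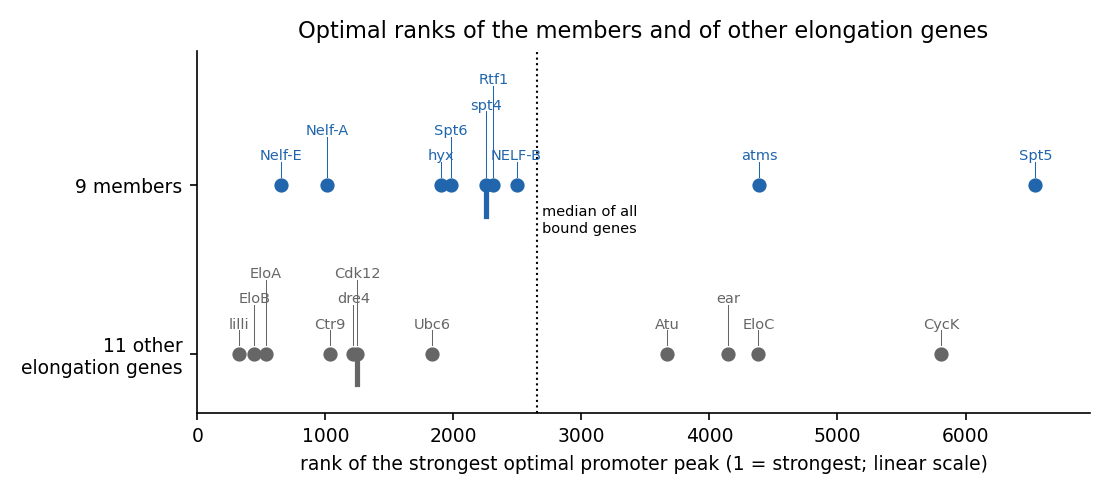
Rank of the strongest optimal promoter peak (x axis, linear, rank 1 is the strongest) for the 9 members with one, above, and for the 11 other elongation genes with one, below, with short thick bars at each list's median and a dotted line at the median of all protein-coding genes with an optimal promoter peak. The members have a median of 2255 and the other elongation genes 1250, and the members run from 653 to 6546 and the others from 328 (lilli itself) to 5809.

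Among 6316 protein-coding genes with a promoter peak in all 3 replicates, the genes whose 3 ranks lay nearest to those of Nelf-E were found by Euclidean distance of log2 ranks. RpL14 was at a distance of 0, because it has the very same peak. Next came pad and SF2, a zinc finger gene and a splicing factor gene, which share 1 peak that ranked 665, 608 and 620 in replicates 1, 2 and 3, a distance of 0.13. The likeness is of rank alone.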

How the data were processed

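Peaks came from the deposited dm6 lists of lilli-eGFP ChIP-seq. The authors made a list per replicate and one from all 3 replicates together, each against a control alignment, and took the optimal list from them by irreproducible discovery rate, per the file headers. The aligner and peak caller were not given in the sources used here. Peaks were ranked by the signal column of the deposited lists, whose scale differs from list to list. Ranking did not use the authors' -log10 q-values, which are tied at their maximum in 6088 optimal peaks. Per the labels, fragments were 200 to 800 bp. The dm3 lists were not used here.

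Summits were placed 1-based and compared with Ensembl release 115 starts on the same assembly, arms X, 2L, 2R, 3L, 3R and 4, without transposable elements. Bound genes, words, GC content and unique 31-base words were computed from these positions and from the RefSeq sequence, with Python 3.11.15, numpy 2.4.6, pandas 2.3.3 and matplotlib 3.10.9. The assignment of summits to starts was tested on simulated data. No group comparison exists, so no test was made. Replicate numbers and their biological nature are as the labels give them.

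Members and lists were chosen with earlier results of these data known. Named genes are the members, genes with a start within 500 bp of their promoter summit, 20 listed elongation names and the 3 genes nearest in rank to the strongest member. RpL11, mei-41, CG33792 and the lower-ranked body peaks were chosen after their values were seen. Alternatives were windows of 250 and 1000 bp, the peak's middle, other list lengths, word windows, and leaving out each replicate.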

Additional observations from a re-analysis of the deposited data

How the results depend on the processing

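Of 65 alternatives to the counts, ranks, distances and word counts, 52 left the value within the spread between replicates or within 1.5 times the count. The optimal promoter count stayed at 9 with windows of 250 or 1000 bp, with the peak's middle and with all pooled peaks, was 7 with only the strongest 3485 optimal peaks, and ran from 8 to 9 without a replicate, where Spt5 was the gene lost. The mean count per replicate was 7.67 with the strongest 3485 peaks of each (Spt5 and atms fell out in every replicate), 9.67 with all peaks, and 9 to 10 without a replicate. Gene-body peaks were found in 3 members with all pooled peaks. The median pooled rank of 2255 ran from 2011 (without replicate 1) to 2659 (without replicate 2). The values without a replicate are medians of the members' mean ranks in the remaining replicates. TH1 counts in the value of 2011 and not in 2255 or 2659. The median distance was -97 bp over all promoter peaks. Shared peaks fell to 4 members with a window of 250 bp, since NELF-B, Spt6 and atms share theirs only at longer range, and ran from 6 to 7 without a replicate. Within 50 bp of the summit GGTCACAC was found at 0 of 9 members, against 2.51% of optimal promoter peaks. Within 250 bp GGTCACAC was found at 2 of 9, GAGAG at 3 and TATAAA at 2. The shares of optimal promoter peaks within 250 bp were 10.9%, 45.8% and 58.9%. Without replicate 2 or 3 the Spt5 peak is lost, which takes GGTCACAC and TATAAA to 0, and without replicate 1 both stay at 1. To leave out 1 replicate, optimal peaks were kept if both other replicates had a strong summit within 100 bp (4828 to 5124 peaks), so these sets are stricter too. Each is a part of the optimal list, so the count of members with an optimal promoter peak could only stay or fall. TH1, absent from the optimal list, could not return without replicate 1. Depth is unknown, so a rank near 6970, such as that of Spt5, cannot be told from one just outside. No paired analysis was possible because there is only 1 group.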
